A study of Mus musculus with 17 samples.

Results

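The genes described here are 42 interferon-stimulated genes chosen by symbol as well-known targets of type I and type II interferon. The choice rests on no threshold on a measured value, but it was made with earlier results of these data known. All 42 were found among the 31053 genes of the count table, by Ensembl identifier, and all 42 had enough counts to be tested, among 14030 genes tested in all. They were followed in the 17 libraries of a time course of cardiac fibroblasts (CFs) after myocardial infarction (MI).

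The cells were sorted from infarcted hearts of C57BL/6 mice of the genotype Collagen1a1-GFP+, 8 to 10 weeks old, as GFP-positive cells without CD31, an endothelial protein, and without CD45, a leukocyte protein. GFP is driven by the promoter of a collagen gene, so that it reports activity of that promoter, which is high in fibroblasts. There were 3 libraries each at 1, 2, 4 and 6 days post-infarction (dpi), 4 at 3 dpi and 1 at 5 dpi. Every group was infarcted, so each comparison is between days after injury and none is against an uninjured heart, and p-values measure the spread between libraries. The study's methods call the replicates biological, but the labels do not say which animal or animals a library came from.

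Type I interferons are secreted proteins that cells release when they sense foreign or misplaced nucleic acid. Type I interferon signals through the kinases JAK1 and TYK2 to a complex that holds STAT2 and IRF9 and binds interferon-stimulated response elements, whereas interferon gamma acts mainly at gamma-activated sites. The genes switched on in this way include further sensors and transcription factors, proteins that block translation or degrade RNA, enzymes of protein modification, membrane proteins that hold back viruses, and GTPases that attack intracellular pathogens. In the infarcted heart, nucleic acid from dying cells is a known trigger of this response, mainly in myeloid cells.

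Total counts ranged from 8021815 to 22029938 per library, with a median of 14123952, and the 42 genes held between 0.199% and 0.370% of them. A gene's level is given as log2 CPM, the counts per total library size (CPM) after TMM scaling, on a log2 scale with a prior count of 2. At these totals 3 counts, the smallest number that can be told from 0, correspond to between 0.136 and 0.374 CPM, and this covers counting error only. The 8 fibroblast markers, such as *Col1a1* and *Pdgfra*, summed to between 12210 and 38660 CPM. The sex-linked genes split the libraries: all 4 and 6 dpi libraries held *Xist*, with 1005 to 3436 counts, whereas those of 2, 3 and 5 dpi held no more than 51 and instead had 402 counts or more of 4 Y-linked genes. At 1 dpi, replicate 1 had 1670 counts of *Xist* and 84 of the Y-linked genes, replicate 2 had 461 and 1455, and replicate 3 had 63 and 1207. Replicates 1 and 2 of 1 dpi thus held both kinds of transcript. The 3 dpi libraries also carry another naming scheme than the rest.

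The set as a whole was higher at 4 dpi than on the days before. The set level, the mean log2 CPM of the 42 genes in a library, was 4.16, 3.99 and 4.05 at 1 dpi, 3.66, 4.12 and 4.13 at 2 dpi, and 3.73, 3.96, 4.44 and 4.12 at 3 dpi. It was 4.72, 4.76 and 4.79 at 4 dpi, 4.54 in the single 5 dpi library, and 4.59, 4.18 and 4.48 at 6 dpi. All 3 libraries of 4 dpi lay above all 10 libraries of 1 to 3 dpi, and also above those of 5 and 6 dpi. The 6 dpi libraries overlapped with 3 dpi and lay above every 1 dpi library.

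**Figure D1:**
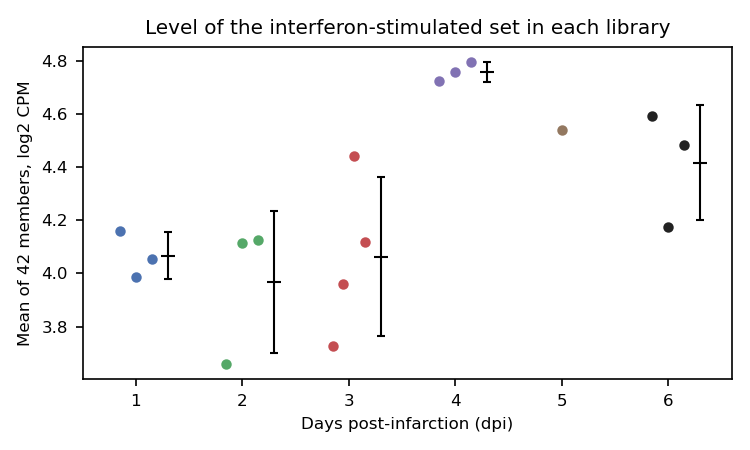
Set level of the 42 interferon-stimulated genes against days post-infarction. Each point is 1 library, in the order of its replicate number within a day, and the bar beside it is the mean with the SD on the log2 CPM scale (none at 5 dpi, with 1 library). The 3 libraries of 4 dpi, at 4.72 to 4.79, lie above all others, and the 3 dpi libraries spread from 3.73 to 4.44.

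The mean and SD of the set level were 4.07 ± 0.09 for the 3 libraries of 1 dpi, 3.97 ± 0.27 for the 3 of 2 dpi, 4.06 ± 0.30 for the 4 of 3 dpi, 4.76 ± 0.04 for the 3 of 4 dpi and 4.42 ± 0.22 for the 3 of 6 dpi. The difference of 0.70 between 4 and 3 dpi and that of 0.79 between 4 and 2 dpi were larger than the pooled SD of 0.22 between libraries of a day. The difference of -0.10 between 2 and 1 dpi and that of 0.09 between 3 and 2 dpi were smaller than it. From 4 to 6 dpi the set level differed by -0.34, and from 1 to 6 dpi by 0.35. No p-value is given for this mean, because the genes were chosen with earlier results of these data known.

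Single libraries moved the level of the set within a day, yet none carried the 4 dpi level alone. At 2 dpi, replicate 1 was the lowest of its day for 34 of the 42 genes (81%), against 34.5% of all genes tested. At 3 dpi, replicate 3 was the highest of its 4 libraries for 23 genes (54.8%, against 24.7% of all genes) and replicate 1 the lowest for 20 (47.6%, against 20.6%). At 4 dpi, replicate 3 was the highest for 23 genes (54.8%, against 38.2%), but the 3 set levels differed by only 0.07. With each of the 7 libraries of 3 and 4 dpi left out in turn, the difference between these days stayed between 0.58 and 0.82, and the difference between 4 and 2 dpi between 0.64 and 0.87. In bulk libraries, a change in the share of cells that respond cannot be told apart from a change in RNA per cell.

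Transcripts of other cell types moved between libraries as well. Macrophage markers, 10 genes including *Ptprc*, *Lyz2* and *C1qa*, summed to 282 and 286 CPM in replicates 3 and 4 of 3 dpi, to 54.9 and 74.8 CPM in the other two 3 dpi libraries, to 85.5 CPM at 5 dpi and to between 13.9 and 41.6 CPM elsewhere. Endothelial markers, 6 genes including *Pecam1*, summed to 85.1 CPM in replicate 3 of 3 dpi, the highest of all libraries, to between 16.9 and 46.9 CPM in the other 3 dpi libraries and to between 25.5 and 54.8 CPM at 4 dpi. Mural cell markers, 5 genes including *Rgs5*, summed to 158.8 CPM at 5 dpi and 122 CPM in replicate 3 of 4 dpi, the highest sums, and to between 20.4 and 96.0 CPM elsewhere, and 2 of them, *Rgs5* and *Cspg4*, were called higher from 2 to 4 dpi and from 1 to 6 dpi by edgeR. The 3 dpi library with the highest set level, replicate 3, was thus one of those with the most macrophage transcripts and the one with the most endothelial transcripts. Replicate 4 of 3 dpi, with the highest macrophage sum, had a set level of only 4.12. It was the highest of its day for 4 of the 42 genes (9.52%, against 19.6% of all genes). In macrophage markers the 4 dpi libraries, at 29.9 to 40.8 CPM, were within the range of 1 dpi. They were above all 2 dpi libraries, at 13.9 to 28.3 CPM. Cardiomyocyte markers, 6 genes including *Tnnt2* and *Myh6*, summed to between 6.00 and 10.8 CPM at 3 dpi, 9.39 and 16.5 CPM at 2 dpi, 36.3 and 61.9 CPM at 4 dpi and 75.7 and 162.5 CPM at 6 dpi, and to 12.9 CPM at 5 dpi. Neutrophil and lymphocyte markers stayed at or below 6.97 and 1.54 CPM, with *Cd3e* and *Cd3d* at 0 in every library. The part of these transcripts in the level of the set was not tested.

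By role, the groups of genes had different courses of their mean level. Among the guanylate-binding and immunity-related GTPases, 6 genes whose products act on membranes of intracellular pathogens, the mean level was 4.16 ± 0.13 at 1 dpi, 4.17 ± 0.25 at 2 dpi and 4.13 ± 0.38 at 3 dpi, reached 4.91 ± 0.27 at 4 dpi and was 4.20 ± 0.43 at 6 dpi (SD, n = 4 at 3 dpi and 3 otherwise). The 5 OAS genes, sensors of double-stranded RNA and their relatives, were at 1.87 ± 0.18, 1.78 ± 0.26, 2.63 ± 0.57, 2.96 ± 0.31 and 2.98 ± 0.48 on the same days, so that their 3 dpi mean lay between those of 2 and 4 dpi and their 6 dpi mean was as high as that of 4 dpi. The OAS mean includes *Oas3*, which had only 0 to 32 counts per library, and *Oasl1*, which was highest in replicate 2 of 3 dpi, at 4.41. The 4 genes of signalling and transcription were at 5.86 ± 0.02 at 4 dpi and 6.00 ± 0.04 at 6 dpi, with every library of these days above every other, the nearest being replicate 3 of 3 dpi at 5.79. The 6 antiviral effectors had a mean level of 4.35 ± 0.35 at 3 dpi, 5.46 ± 0.15 at 4 dpi, without overlap, and 4.88 ± 0.40 at 6 dpi. No test was made of these group means.

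**Figure D2:**
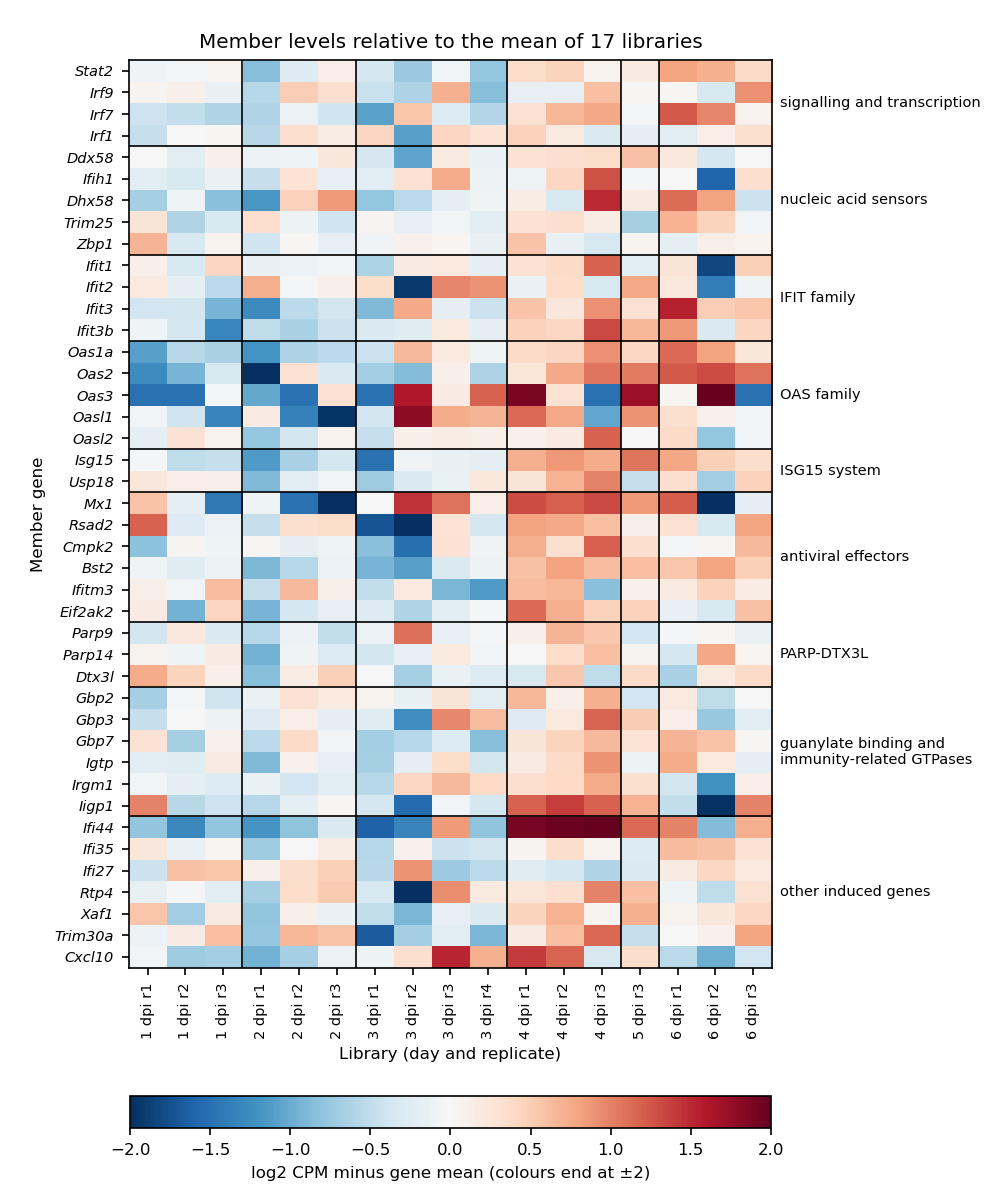
Level of each of the 42 genes (rows, by role) in each of the 17 libraries (columns, by day and replicate) minus the mean of that gene, in log2 CPM, with colours ending at 2 on either side. The 4 dpi columns are red for most genes, replicate 1 of 2 dpi is blue for most, and the rows of *Ifi27*, *Dtx3l* and *Ifit2* go their own way.

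The mean level was highest at 4 dpi for 26 of the 42 genes and at 6 dpi for 11, among the 5 days with replicates, whereas 14.5% of all genes tested peaked at 4 dpi and 29.6% at 6 dpi. Across all days, 9 of the 42 genes (21.4%) passed the quasi-likelihood test of edgeR at an adjusted p of 0.05 (Benjamini-Hochberg), against 15% of all genes, and DESeq2 called 14, against 26.8% of all genes. Those called by edgeR were *Ifi44* (adjusted p = 0.0028), *Isg15* (0.0039), *Oas1a* (0.004), *Bst2* (0.0051), *Oas2* (0.011), *Cxcl10* (0.017), *Ifit3* (0.022), *Irf7* (0.026) and *Stat2* (0.034).

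Between 3 and 4 dpi, 5 of the 42 genes passed the threshold, all of them higher at 4 dpi. The fold change was positive for 39 genes, against 48.1% of all genes, with a median log2 fold change of 0.59 against -0.03 over all genes. In 17 genes (40.5%) every 4 dpi library was above every 3 dpi library, as in 8.64% of all genes. The 5 genes were 11.9% of the set, against 1.63% of all genes called higher and 2.71% called in either direction, and 19 had an unadjusted p under 0.05 (45.2%), all of them higher, against 9.09% of all genes. DESeq2 called 7, against 6.39% of all genes. The called genes were *Ifi44*, *Bst2*, *Isg15*, *Gbp7* and *Trim30a*.

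*Ifi44* encodes an interferon-induced protein related to GTPases and lies on the minus strand at chr3:151730922-151749960 (GRCm38). Its level was 1.20, 0.70 and 1.19 log2 CPM at 1 dpi, 0.80, 1.18 and 1.70 at 2 dpi, 0.37, 0.67, 2.83 and 1.18 at 3 dpi, 3.88, 3.95 and 4.21 at 4 dpi, 3.12 at 5 dpi and 2.98, 1.13 and 2.72 at 6 dpi. The 3 libraries of 4 dpi were above all other libraries, replicate 3 was the highest library of 3 dpi, and 6 dpi ranged from the early level to nearly that of 5 dpi. Its counts were 225, 265 and 172 at 4 dpi against 13, 18, 94 and 20 at 3 dpi. The level rose 5.43-fold from 3 to 4 dpi (log2 fold change 2.44, SE 0.53, adjusted p = 0.016, edgeR).

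*Bst2* encodes tetherin, a membrane protein that holds budding virus particles on the cell, and lies at chr8:71534255-71537456 on the minus strand. It was at 8.70, 8.52 and 8.66 log2 CPM at 1 dpi, 7.87, 8.19 and 8.65 at 2 dpi, 7.83, 7.68, 8.48 and 8.67 at 3 dpi, 9.36, 9.57 and 9.39 at 4 dpi, 9.37 at 5 dpi and 9.32, 9.56 and 9.24 at 6 dpi. The 7 libraries from 4 dpi on did not overlap with the 10 before. From 3 to 4 dpi it rose 2.33-fold (log2 fold change 1.22, SE 0.26, adjusted p = 0.015, edgeR).

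*Isg15* encodes a ubiquitin-like protein that is attached to other proteins and also secreted, at chr4:156199424-156200818 on the minus strand. It was at 6.96, 6.47 and 6.51 log2 CPM at 1 dpi, 5.84, 6.32 and 6.62 at 2 dpi, 5.48, 6.91, 6.83 and 6.78 at 3 dpi, 7.69, 7.85 and 7.72 at 4 dpi, 8.05 at 5 dpi and 7.75, 7.45 and 7.33 at 6 dpi. As for *Bst2*, every library from 4 dpi on was above every earlier one, and replicate 1 of 3 dpi was far below the other libraries of its day. The rise from 3 to 4 dpi was 2.23-fold (log2 fold change 1.15, SE 0.29, adjusted p = 0.035, edgeR).

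For *Gbp7* and *Trim30a*, the difference from 3 dpi went with low levels at 3 dpi. *Gbp7*, a guanylate-binding protein at chr3:142530342-142550149 on the plus strand, was at 5.23, 4.27 and 5.02 log2 CPM at 1 dpi, 4.39, 5.33 and 4.88 at 2 dpi, 4.26, 4.36, 4.66 and 4.08 at 3 dpi, 5.21, 5.38 and 5.58 at 4 dpi, 5.21 at 5 dpi and 5.62, 5.52 and 4.97 at 6 dpi. *Trim30a*, a tripartite motif protein at chr7:104409025-104465193 on the minus strand, was at 2.83, 3.12 and 3.56 at 1 dpi, 2.18, 3.62 and 3.52 at 2 dpi, 1.29, 2.27, 2.74 and 2.03 at 3 dpi, 3.13, 3.55 and 4.10 at 4 dpi, 2.47 at 5 dpi and 2.96, 3.03 and 3.74 at 6 dpi. In both genes the 4 dpi libraries were above those of 3 dpi and overlapped with those of 1 and 2 dpi. The log2 fold changes from 3 to 4 dpi were 1.04 (SE 0.27, adjusted p = 0.043, edgeR) for *Gbp7* and 1.50 (SE 0.40, adjusted p = 0.049, edgeR) for *Trim30a*, and from 2 to 4 dpi they were 0.48 (SE 0.29, adjusted p = 0.61, edgeR) and 0.41 (SE 0.42, adjusted p = 0.84, edgeR). Without 1 of 16 libraries in turn, the rise from 3 to 4 dpi no longer passed in 12 of 16 fits for *Trim30a* and in 8 for *Gbp7*.

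**Figure D3:**
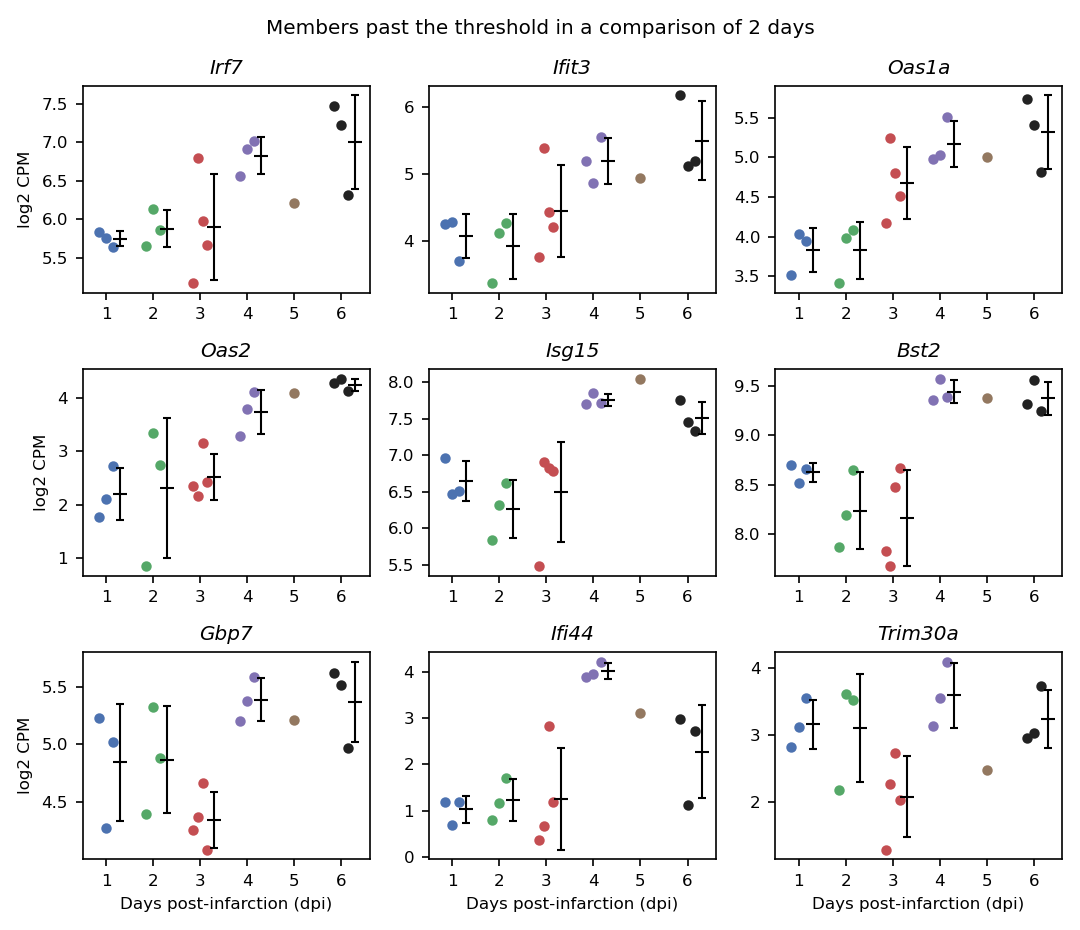
Level in log2 CPM (vertical axes, which do not start at 0) against days post-infarction for the 9 genes past the threshold in a comparison of 2 days. Points are libraries, and the bar beside them is the mean with the SD. *Bst2* and *Isg15* do not overlap before and from 4 dpi on, while *Trim30a* at 4 dpi overlaps with 1 and 2 dpi.

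These calls rested on few libraries and on differences that went with the day. Without replicate 1 of 3 dpi or replicate 2 of 4 dpi no gene of the set passed between 3 and 4 dpi by edgeR (with 13 and 18 at an unadjusted p under 0.05), 1 passed without replicate 4 of 3 dpi, 2 without replicate 1 or replicate 3 of 4 dpi, and 3 without replicate 3 of 1 dpi, replicate 3 of 2 dpi or replicate 1 of 6 dpi, although no fold change turned. With the sex-linked pattern as a term no gene passed either, with 4 at an unadjusted p under 0.05, and sex and day cannot be told apart between 3 and 4 dpi. Cardiomyocyte markers moved the same way in this comparison, with 6 of 6 higher and 4 of them called.

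Of the genes that did not pass, 5 had a log2 fold change above that of *Gbp7*. By edgeR, the GTPase gene *Iigp1* differed by 1.74 (SE 0.50, adjusted p = 0.069), *Rsad2*, which encodes viperin, by 1.42 (SE 0.49, adjusted p = 0.13), *Oas2* by 1.21 (SE 0.42, adjusted p = 0.13), *Cmpk2*, the neighbour of *Rsad2*, by 1.19 (SE 0.43, adjusted p = 0.14) and *Eif2ak2*, the kinase PKR that halts translation, by 1.07 (SE 0.31, adjusted p = 0.073). In each of these the 4 dpi libraries were above all 3 dpi libraries. The log2 fold change was negative for *Ifit2* (-0.43), *Oasl1* (-0.36) and *Ifi27* (-0.33).

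**Figure D4:**
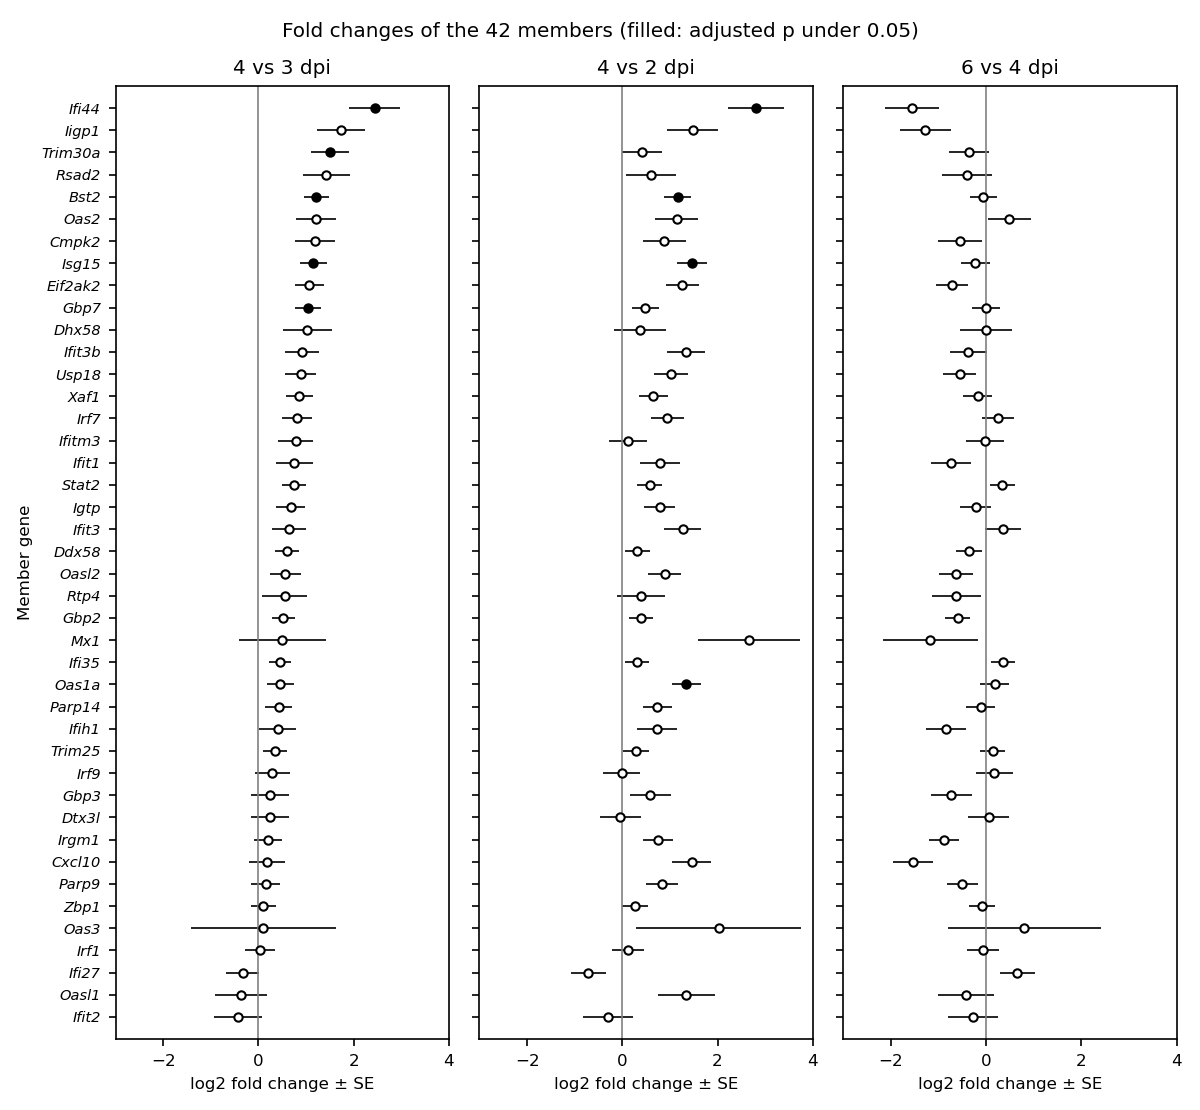
Log2 fold change with its SE for the 42 genes in 3 comparisons, ordered by that between 4 and 3 dpi. Filled points passed an adjusted p of 0.05. Most points lie right of 0 for 4 against 3 dpi and 4 against 2 dpi and left of 0 for 6 against 4 dpi. All 3 panels use the same 4 dpi libraries.

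Taking the 4 dpi libraries against those of 2 dpi, which have the naming scheme in common, the fold change was positive for 38 of 42 genes, against 51% of all genes, with a median of 0.74 against 0.01. In 20 genes (47.6%) every 4 dpi library was above every 2 dpi library, as in 8.93% of all genes. There were 4 genes past the threshold, all higher (9.52%, against 0.805% of all genes called higher and 1.18% in either direction), and 21 higher with an unadjusted p under 0.05 (50%, against 6.53%). They were *Ifi44* (log2 fold change 2.81, SE 0.59, adjusted p = 0.019), *Isg15* (1.46, SE 0.31, adjusted p = 0.022), *Oas1a* (1.34, SE 0.31, adjusted p = 0.034) and *Bst2* (1.17, SE 0.28, adjusted p = 0.048), by edgeR. With each of 16 libraries left out in turn, *Bst2* no longer passed in 13 of 16 fits, *Oas1a* in 6, *Isg15* in 4 and *Ifi44* in 3. DESeq2 called 7 of the 42 genes, against 3.06% of all genes. No gene passed by edgeR without replicate 1 or 2 of 2 dpi or replicate 2 of 4 dpi, where 12, 17 and 17 had an unadjusted p under 0.05, and 1 passed without replicate 1 of 4 dpi. The sex-linked pattern and cardiomyocyte markers, of which 5 of 6 were higher and 2 called, differed between these days as well. Macrophage markers were higher at 4 dpi in 8 of 9 genes, with a median log2 fold change of 1.80 and 0 called by edgeR. With the sex-linked pattern as a term 0 genes of the set passed by edgeR and 2 had an unadjusted p under 0.05. Sex and day cannot be told apart between 2 and 4 dpi.

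In 9 of the 42 genes (21.4%), against 1.81% of all genes tested, all 3 libraries of 4 dpi were above all 10 libraries of 1, 2 and 3 dpi. They were *Ifi44*, *Bst2*, *Isg15* and its protease *Usp18*, the RNA sensor *Ddx58* (RIG-I), *Ifit3b*, *Cmpk2*, *Eif2ak2* and *Iigp1*. *Ddx58*, for instance, was at 4.99, 4.78 and 5.10 log2 CPM at 1 dpi, 4.88, 4.91 and 5.23 at 2 dpi, 4.65, 3.93, 5.18 and 4.86 at 3 dpi, 5.29, 5.33 and 5.36 at 4 dpi, 5.57 at 5 dpi and 5.21, 4.65 and 5.00 at 6 dpi. Its 4 dpi libraries were higher by a small margin, and its log2 fold change from 3 to 4 dpi of 0.61 (SE 0.25, adjusted p = 0.20, edgeR) did not pass.

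The letters of an interferon-stimulated response element were looked for in the promoters of these genes. In the RefSeq promoter sequences (GRCm38.p6, 250 bases before to 50 after each start), 32 of the 42 genes had an entry, and the letters GAAANNGAAA, or TTTCNNTTTC on the other strand, were present in 20 of them (62.5%), against 3.99% of 27025 gene symbols and 3.44% of 32851 promoters. The letters of a gamma-activated site, TTCNNNGAA, which read the same on both strands, were present in 9 of 32 (28.1%), against 9.55% of all symbols. Of the 9 genes called in a comparison of 2 days, 8 had an entry and 6 of these held the first motif. The 160 bases before the start are shown for those 6, 5′ to 3′ on the strand of the gene, with matches to the first motif in capitals, since they are the called genes in which these letters occur before the start.
Isg15: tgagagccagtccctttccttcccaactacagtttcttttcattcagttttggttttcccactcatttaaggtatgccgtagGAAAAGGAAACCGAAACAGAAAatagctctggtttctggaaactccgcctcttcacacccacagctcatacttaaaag
Bst2: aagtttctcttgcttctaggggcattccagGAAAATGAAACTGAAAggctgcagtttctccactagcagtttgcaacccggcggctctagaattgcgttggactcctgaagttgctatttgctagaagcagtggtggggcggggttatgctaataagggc
Oas1a: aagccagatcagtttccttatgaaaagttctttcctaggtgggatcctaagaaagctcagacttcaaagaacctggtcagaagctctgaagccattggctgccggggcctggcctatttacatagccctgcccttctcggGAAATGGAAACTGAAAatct
Gbp7: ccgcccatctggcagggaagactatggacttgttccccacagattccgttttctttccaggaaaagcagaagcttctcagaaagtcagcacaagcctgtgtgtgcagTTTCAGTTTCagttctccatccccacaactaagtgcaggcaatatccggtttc
Ifit3: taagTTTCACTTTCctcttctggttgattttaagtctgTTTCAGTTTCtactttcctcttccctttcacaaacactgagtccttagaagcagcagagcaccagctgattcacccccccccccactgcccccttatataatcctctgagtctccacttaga
Trim30a: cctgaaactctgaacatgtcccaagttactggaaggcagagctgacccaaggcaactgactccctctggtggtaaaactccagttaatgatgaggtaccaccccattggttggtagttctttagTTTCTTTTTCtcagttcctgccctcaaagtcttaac
These stretches lie at chr4:156200819-156200978 for *Isg15*, chr8:71537473-71537632 for *Bst2*, chr5:120907526-120907685 for *Oas1a* and chr7:104465194-104465353 for *Trim30a*, all on the minus strand, and at chr3:142530176-142530335 for *Gbp7* and chr19:34583369-34583528 for *Ifit3* on the plus strand. In *Isg15* there were 3 overlapping matches that began at positions -78, -72 and -66 from the start, in *Bst2* a pair at -130 and -124 with TTCCAGGAA at -136 overlapping the first, and in *Oas1a* a pair at -20 and -14. *Gbp7* had its match on the other strand at -53 and *Ifit3* at -156 and -122, while that of *Trim30a*, at -36, lies in a run of pyrimidines. Neither *Ifi44* nor *Irf7* held the first motif in its window. The letters are a description of these windows and no evidence of binding.

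Between 1 and 2 dpi, and between 2 and 3 dpi, no gene of the set passed. From 1 to 2 dpi the median log2 fold change was -0.07, with 0 genes called by edgeR, 0 at an unadjusted p under 0.05 and 0 by DESeq2, against 0.178%, 7.58% and 0.741% of all genes. From 2 to 3 dpi it was 0.10, with 0 genes called by edgeR against 2.94% of all genes, 6 at an unadjusted p under 0.05 (14.3%, against 18.3%) and 3 by DESeq2 (against 7.58%). Those 3 were *Cxcl10*, *Oas1a* and *Oasl1*. With a single library left out, edgeR called 2 genes without replicate 2 of 3 dpi and 1 without replicate 1 of 2 dpi or replicate 3 of 4 dpi. Without the macrophage-rich replicates 3 and 4 of 3 dpi, edgeR called 1 gene, *Rsad2*, which was lower.

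The chemokine *Cxcl10*, which attracts T cells through CXCR3, differed more between 2 and 3 dpi than between 3 and 4 dpi. It was at 5.65, 5.00 and 5.03 log2 CPM at 1 dpi, 4.77, 5.04 and 5.58 at 2 dpi, 5.60, 6.04, 7.23 and 6.42 at 3 dpi, 7.10, 6.87 and 5.38 at 4 dpi, 6.06 at 5 dpi and 5.17, 4.74 and 5.32 at 6 dpi. All 3 dpi libraries were above all 2 dpi libraries, as in 4 of the 42 genes (9.52%, against 9.7% of all genes). Of the 3 libraries of 4 dpi, 2 were high, and the mean was highest at 4 dpi, as for most of the set. Its log2 fold change was 1.28 from 2 to 3 dpi (SE 0.39, adjusted p = 0.079, edgeR), 0.18 from 3 to 4 dpi (SE 0.37, adjusted p = 0.85, edgeR) and -1.54 from 4 to 6 dpi (SE 0.41, adjusted p = 0.076, edgeR). Its highest value was in replicate 3 of 3 dpi, one of the libraries with the most macrophage transcripts. Replicate 4 of 3 dpi, with the highest macrophage sum, was at 6.42. Replicate 1 of 4 dpi was at 7.10 with 30.3 CPM of macrophage markers. *Cxcl10* shares exon sequence with *Art3* on the other strand.

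From 4 to 6 dpi, 31 of the 42 fold changes were negative and 11 positive (26.2%, against 49% of all genes), and the median was -0.25, against -0.02 over all genes. No gene passed by edgeR, against 0.513% of all genes, 6 had an unadjusted p under 0.05 (14.3%), all lower at 6 dpi, against 10.1% of all genes, and DESeq2 called 1, *Cxcl10*, as lower, against 6.51% of all genes. In 6 genes (14.3%) every 6 dpi library was below every 4 dpi library, as in 10.2% of all genes. *Ifi44* differed by -1.56 (SE 0.56, adjusted p = 0.14), *Iigp1* by -1.28 (SE 0.54, adjusted p = 0.20) and *Irgm1* by -0.89 (SE 0.32, adjusted p = 0.14), by edgeR. *Isg15* at -0.23 (SE 0.31, adjusted p = 0.71) and *Bst2* at -0.06 (SE 0.28, adjusted p = 0.92) were close to 0 by the same test. Replicate 2 of 6 dpi was the lowest of its day for 19 genes (45.2%, against 34.8% of all genes), and without replicate 3 of 6 dpi 3 genes passed, *Cxcl10*, *Iigp1* and *Irgm1*, while 1 passed without replicate 2 of 3 dpi or replicate 3 of 4 dpi.

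At 6 dpi against 1 dpi, 4 genes passed, all higher (9.52%), and this share lay near the background of 6.91% of all genes called higher and 12.1% called in either direction. The median log2 fold change was 0.20 against 0.03 over all genes, and in 9 genes (21.4%) every 6 dpi library was above every 1 dpi library, as in 17.1% of all genes. The 4 genes were a pair of OAS genes, *Ifit3* and *Irf7*. Cardiomyocyte markers were higher in 6 of 6 genes, with 5 called.

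*Oas1a* and *Oas2* encode synthetases that activate RNase L when they meet double-stranded RNA. *Oas1a* (chr5:120896256-120907521, minus strand) was at 3.51, 4.04 and 3.94 log2 CPM at 1 dpi, 3.41, 3.99 and 4.08 at 2 dpi, 4.17, 5.24, 4.80 and 4.52 at 3 dpi, 4.98, 5.03 and 5.51 at 4 dpi, 5.01 at 5 dpi and 5.73, 5.41 and 4.82 at 6 dpi. *Oas2* (chr5:120730333-120749853, minus strand) was at 1.78, 2.10 and 2.72 at 1 dpi, 0.85, 3.35 and 2.75 at 2 dpi, 2.35, 2.17, 3.14 and 2.42 at 3 dpi, 3.29, 3.79 and 4.11 at 4 dpi, 4.08 at 5 dpi and 4.27, 4.34 and 4.12 at 6 dpi. All libraries of *Oas1a* from 3 dpi on were above those of 1 and 2 dpi, whereas in *Oas2* replicate 2 of 2 dpi was above replicate 1 of 4 dpi, and the 3 libraries of 6 dpi were the highest of all. From 1 to 6 dpi *Oas1a* rose by 1.52 (SE 0.31, adjusted p = 0.0037, edgeR) and *Oas2* by 2.00 (SE 0.47, adjusted p = 0.009, edgeR) on the log2 scale.

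*Ifit3* belongs to a family of proteins that bind foreign RNA, and *Irf7* is the transcription factor that amplifies type I interferon production. *Ifit3* (chr19:34583531-34588731, plus strand) was at 4.26, 4.28 and 3.70 log2 CPM at 1 dpi, 3.37, 4.11 and 4.27 at 2 dpi, 3.76, 5.40, 4.43 and 4.21 at 3 dpi, 5.20, 4.86 and 5.55 at 4 dpi, 4.94 at 5 dpi and 6.18, 5.13 and 5.19 at 6 dpi. *Irf7* (chr7:141262706-141266481, minus strand) was at 5.84, 5.76 and 5.64 at 1 dpi, 5.65, 6.13 and 5.85 at 2 dpi, 5.17, 6.80, 5.98 and 5.66 at 3 dpi, 6.56, 6.91 and 7.01 at 4 dpi, 6.22 at 5 dpi and 7.47, 7.22 and 6.32 at 6 dpi. In both, the 4 and 6 dpi libraries were above those of 1 and 2 dpi, and replicate 2 of 3 dpi reached into their range. From 1 to 6 dpi *Ifit3* rose by 1.49 (SE 0.39, adjusted p = 0.017, edgeR) and *Irf7* by 1.34 (SE 0.34, adjusted p = 0.016, edgeR).

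In place of 4 genes, 1 passed between 1 and 6 dpi without replicate 1 of 1 dpi and 2 without replicate 3 of 1 dpi or replicate 1 of 6 dpi. *Oas1a* passed with each of the 16 libraries left out in turn, and it was the 1 gene that passed with the sex-linked pattern as a term. That term rests on replicate 1 of 1 dpi, which held both kinds of transcript, so this fit cannot separate sex from day.

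Not every gene of the set moved with the others. As a measure of likeness, Pearson's r was taken over the 17 libraries between a gene and the mean of the other 41, all in log2 CPM, which share the libraries and the day. It was highest for *Ifi44* (0.95), *Isg15* (0.88) and *Bst2* (0.82), and lowest for *Ifi27* (-0.41), *Dtx3l* (0.06), *Ifit2* (0.06) and *Oas3* (0.11). Within days, after the mean of each day was taken off, it was 0.88 for *Ifi44* and -0.29 for *Ifi27*.

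*Ifi27*, a mitochondrial protein induced by interferon, was at 7.92, 8.94 and 8.92 log2 CPM at 1 dpi, 8.48, 8.71 and 8.83 at 2 dpi, 7.81, 9.26, 7.63 and 7.82 at 3 dpi, 8.11, 8.01 and 7.76 at 4 dpi, 8.07 at 5 dpi and 8.54, 8.77 and 8.55 at 6 dpi. It was low at 4 dpi, where the set was high, with all 4 dpi libraries below all 2 dpi libraries, and one 3 dpi library stood far above the rest. Its log2 fold change was -0.71 from 2 to 4 dpi (SE 0.37, adjusted p = 0.50, edgeR) and 0.66 from 4 to 6 dpi (SE 0.36, adjusted p = 0.32, edgeR).

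*Ifit2* was at 3.17, 2.79 and 2.45 log2 CPM at 1 dpi, 3.71, 2.94 and 3.08 at 2 dpi, 3.34, 1.05, 3.96 and 3.88 at 3 dpi, 2.85, 3.34 and 2.66 at 4 dpi, 3.74 at 5 dpi and 3.19, 1.60 and 2.91 at 6 dpi. Unlike its neighbour *Ifit3*, it overlapped between all days with replicates. *Dtx3l*, an E3 ubiquitin ligase that pairs with PARP9, was at 3.09, 2.78 and 2.44 at 1 dpi, 1.49, 2.49 and 2.81 at 2 dpi, 2.33, 1.68, 2.20 and 2.06 at 3 dpi, 2.01, 2.88 and 1.83 at 4 dpi, 2.72 at 5 dpi and 1.70, 2.53 and 2.72 at 6 dpi. It too showed no separation of days except that every 1 dpi library was above every 3 dpi library. *Oas3* had between 0 and 32 counts per library and 0 counts in 6 of the 17, so that a change in it was not detectable at this depth.

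The remaining pair of genes that stand for their role groups by level, *Ifitm3* and *Parp14*, did not pass in any comparison of 2 days. *Ifitm3*, a membrane protein that blocks virus entry, was at 10.10, 9.93 and 10.60 log2 CPM at 1 dpi, 9.53, 10.64 and 10.10 at 2 dpi, 9.50, 10.18, 9.07 and 8.86 at 3 dpi, 10.61, 10.65 and 9.14 at 4 dpi, 10.06 at 5 dpi and 10.16, 10.45 and 10.12 at 6 dpi. It split the 4 dpi libraries, with replicate 3 down at the level of 3 dpi. *Parp14*, an ADP-ribosyltransferase, was at 4.15, 3.99 and 4.25 at 1 dpi, 3.13, 4.00 and 3.81 at 2 dpi, 3.71, 3.90, 4.27 and 4.02 at 3 dpi, 4.08, 4.43 and 4.68 at 4 dpi, 4.13 at 5 dpi and 3.73, 4.85 and 4.11 at 6 dpi. Its 4 dpi libraries were above those of 2 dpi, by 0.73 on the log2 scale (SE 0.30, adjusted p = 0.34, edgeR).

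*Stat2*, a subunit of the type I complex that passed across days, was at 4.96, 5.02 and 5.08 log2 CPM at 1 dpi, 4.18, 4.79 and 5.16 at 2 dpi, 4.69, 4.30, 4.99 and 4.26 at 3 dpi, 5.41, 5.48 and 5.11 at 4 dpi, 5.23 at 5 dpi and 5.83, 5.75 and 5.42 at 6 dpi. Its lowest libraries were at 2 and 3 dpi, and all 6 dpi libraries were above those of 1 to 3 dpi. Its partner *Irf9*, by contrast, overlapped between all days compared, from 4.47 to 6.23. *Irf1*, which responds most to interferon gamma, differed by 0.03 from 3 to 4 dpi (SE 0.31, adjusted p = 0.98, edgeR).

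The interferons themselves were near or at 0. *Ifnb1* had 30 counts in replicate 2 of 4 dpi, 6 at 5 dpi and 0 in the other libraries, and *Ifng* had at most 11. *Ifna1*, *Ifna2*, *Ifna4*, *Ifnk*, *Ifnl2* and *Ifnl3* had 0 counts in every library, so that each allows up to 0.374 CPM in the shallowest library. These counts concern sorted cells, not the tissue around them.

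Receptors and kinases, upstream adaptors and genes listed as inhibitors of the pathway had median fold changes below 0 between 3 and 4 dpi. Of 9 receptors and kinases tested, 4 had a positive fold change, with a median log2 fold change of -0.08, 0 called by edgeR and 2 at an unadjusted p under 0.05, against 2.71% and 18.2% of all genes in either direction. Of 13 sensing adaptors 6 were positive, with a median of -0.11, 0 called by edgeR and 2 at an unadjusted p under 0.05. Of 8 genes listed as inhibitors, 3 were positive, with a median of -0.27. This list also holds *Uba7*, an enzyme of ISG15 conjugation and no inhibitor. Of the 8, 4 had an unadjusted p under 0.05 and 1 was called by edgeR. It was *Ptpn11*, a tyrosine phosphatase, which was lower (log2 fold change -0.82, SE 0.21, adjusted p = 0.04, edgeR). From 1 to 6 dpi, *Ifngr2*, a chain of the interferon gamma receptor, fell by 1.14 (SE 0.26, adjusted p = 0.0072, edgeR), while *Ikbke*, a kinase upstream of interferon genes, rose by 1.76 (SE 0.54, adjusted p = 0.04, edgeR) and the transcription factor *Irf8* by 1.15 (SE 0.35, adjusted p = 0.038, edgeR). These were 1 of 9 receptors and kinases and 2 of 13 adaptors, beside 0 of 8 listed inhibitors, in a comparison where 12.1% of all genes were called. From 2 to 3 dpi the phosphatase *Ptpn6*, which is typical of leukocytes, was higher (adjusted p = 0.025, edgeR), between days that also differ in macrophage markers, of which 9 of 9 were higher and 4 called.

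Of a further 44 interferon-stimulated genes outside the set, 37 were tested, and none of these was called higher at 4 than at 3 dpi. From 3 to 4 dpi 30 of 37 had a positive fold change, against 48.1% of all genes, with a median of 0.47, 0 called higher by edgeR and 11 at an unadjusted p under 0.05 in either direction, against 18.2% of all genes. *Ifi205* was called lower (log2 fold change -1.22, SE 0.33), 1 of 37 against 2.71% of all genes in either direction. From 2 to 4 dpi 29 were positive with a median of 0.38, 0 were called higher and 2, *Ifi205* and *Mnda*, lower. From 2 to 3 dpi *Ube2l6*, which conjugates ISG15, was called higher (1.62, SE 0.42, adjusted p = 0.042, edgeR) and *Ifitm1* lower (-1.91, SE 0.37, adjusted p = 0.0089, edgeR). From 1 to 6 dpi *Cxcl9* (4.35, SE 1.05, adjusted p = 0.011) and *Ifi27l2a* (1.71, SE 0.40, adjusted p = 0.0098) were higher and *Ifi204*, *Ifi205* and *Mnda* lower by edgeR, 5 of 37 genes against 12.1% of all genes. *Cxcl9* had 0, 6 and 3 counts at 1 dpi and 74, 25 and 40 at 6 dpi, so that the size of its change is uncertain. The counts of *Ifi205* and *Mnda* differed by a ratio of only 0.948 to 1.114 per library, and those of *Tgtp1* and *Tgtp2* by one of only 0.912 to 1.00, so that the genes of either pair may not be counted apart and the 37 genes are not all separate values.

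On GRCm38 the 42 genes lie on 15 chromosomes, with 7 on chromosome 11 and 6 on chromosome 5. Some lie side by side, with *Ifit1*, *Ifit2*, *Ifit3* and *Ifit3b* within 99.3 kb of chromosome 19, *Gbp2*, *Gbp3* and *Gbp7* within 107.7 kb of chromosome 3 and *Rsad2* and *Cmpk2* within 37.1 kb of chromosome 12. Neighbours did not always move together, as *Ifit2* and *Ifit3* show. Reads of some genes can be shared with near copies. Of all 50-base stretches in the last 500 bases of the transcripts, 56.1% were shared for *Oas1a*, mostly with *Oas1g*, 19.9% for *Trim30a*, mostly with *Trim30d*, 14.9% for *Ifit3*, mostly with *Ifit3b*, and 14.0% for *Ifitm3*, so that their values are less certain than those of *Ifi44*, *Bst2* and *Gbp7*, at 0%, and *Isg15*, at 0.7%. The counts of *Ifit3* were between 2.41 and 8.14 times those of *Ifit3b*. A strand setting of the counting is not given in the sources used here, so that reads of *Irf7* and of *Phrf1* on the other strand, whose exons overlap, cannot be told apart, and likewise for *Dtx3l* and *Parp9*.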

How the data were processed

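MARS-seq reads of 17 libraries were demultiplexed by the authors (bcl2fastq, 1.2.4, per the submitters' processing notes), aligned with STAR to the mm10 genome and assigned to Ensembl genes by featureCounts. The deposited table holds these counts as they came, with no scaling. Treatment of multi-mapping reads and of PCR copies is not given in the sources used here. Groups are the days in the sample titles. The 42 genes, the other lists and the tests were chosen with earlier results of these data known.

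Counts were tested in R (4.3.3) with edgeR (4.0.16), by its quasi-likelihood F-test with TMM scaling, and the 6 days entered as a factor in 1 fit of all 17 libraries. The fit took every gene that reached 10 counts in 3 or more libraries, and p-values were adjusted by Benjamini-Hochberg over these 14030 genes at 0.05. The SE is the size of the log2 fold change divided by the square root of F. Per-library values are given for the gene with the highest mean level in each of 9 role groups, for those called in a comparison of 2 days and for the 4 with the lowest r to the others. *Cxcl10*, *Stat2* and the genes named only beside a count were named after their values were seen. Alternatives were DESeq2 (1.42.0), its size factors in the edgeR test, all genes with at least 1 count, the replicate number as a block, fewer libraries in the fit, each of 16 libraries left out in turn and, for set levels, other scalings and subsets. Leaving out 3 dpi replicates 3 and 4, and a term for the sex-linked pattern, were added after the data were seen. Positions are from GENCODE vM21 on GRCm38 and promoters from RefSeq on GRCm38.p6. Motifs were searched with Python (3.11.15), and figures drawn with matplotlib (3.10.9).

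The edgeR test was tried on simulated data of 4 against 3 dpi, with 5 draws, 200 changed genes each and 13647 to 13680 genes tested. It called 19.2% of genes raised by 1 and 86.8% of genes raised by 2 on the log2 scale. Of genes lowered by 1 and by 2 it called 14% and 76.8%. Of all its calls, 3.72% were false. The draws held no differences between days in sex or cell types, so these shares do not cover such differences in the real libraries.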

Additional observations from a re-analysis of the deposited data

Results flagged for a closer look

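At 3 dpi, the only day with 4 libraries, 1 library stood apart in 5 of 43 values examined (the 42 genes and the set level), by the Dixon ratio (the gap of the outermost library over the whole range), whose critical value is 0.829. Chance gives about 1 in 20 such cases, and 9.76% of all genes tested were past the critical value. The ratio was 0.896 for *Irf1*, where replicate 2 was low at 4.64 log2 CPM, 0.912 for *Oasl2*, where replicate 1 was low at 3.16, and 0.910 for *Isg15*, where replicate 1 was low at 5.48. It was 0.893 for *Parp9* and 0.885 for *Ifi27*, where replicate 2 was high at 4.67 and 9.26. The set level itself was not past the critical value.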

How the results depend on the processing

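The differences in set level between days moved by less than the SD between libraries (0.22) under every alternative tried for them, and those between 4 dpi and 2 or 3 dpi kept their sign. These alternatives were other scalings, subsets and left-out libraries. None of them separates sex from day between 4 dpi and 2 or 3 dpi. With 1 library left out the differences ranged from 0.58 to 0.82 for 4 against 3 dpi, 0.64 to 0.87 for 4 against 2 dpi, -0.43 to -0.22 for 6 against 4 dpi, 0.26 to 0.47 for 6 against 1 dpi, -0.18 to 0.05 for 2 against 1 dpi and -0.06 to 0.21 for 3 against 2 dpi. The number of genes called was less stable. DESeq2 called 3 for 3 against 2 dpi (7.58% of all genes), 1 for 6 against 4 dpi (6.51%), 7 for 4 against 2 dpi (3.06%), 14 across days (26.8%), 7 for 4 against 3 dpi (6.39%) and 6 for 6 against 1 dpi (17.3%). With every gene of at least 1 count in the test, edgeR called 3 (4.76% of all genes), 3 (4.29%), 8 (2.33%) and 14 (18.1%) in the first 4 of these, and 9 for 4 against 3 dpi (4.21%). For 4 against 3 dpi, fitting the 7 libraries of both days alone called 1 gene. With 3 dpi replicates 3 and 4 left out, 3 genes were called for 4 against 3 dpi and 1 for 3 against 2 dpi. With the sex-linked pattern as a term, 0 were called for 4 against 3 dpi, 0 for 4 against 2 dpi and 1 for 6 against 1 dpi, and this term rests on replicate 1 of 1 dpi. In that fit the log2 fold changes from 3 to 4 dpi were 2.19 for *Ifi44*, 1.11 for *Bst2*, 0.69 for *Isg15*, 0.50 for *Gbp7* and 2.03 for *Trim30a*. The cause of these changes was not tested. With 1 library left out, the counts ranged from 0 to 7 for 4 against 3 dpi, 0 to 5 for 4 against 2 dpi, 0 to 3 for 6 against 4 dpi, 0 to 2 for 3 against 2 dpi, 0 to 0 for 2 against 1 dpi, 1 to 6 for 6 against 1 dpi and 6 to 12 across days. No gene called in a comparison of 2 days turned in direction, and apart from fits that leave out 1 library, 23 single-gene values fell below the threshold while 73 kept their call. In the 16 such fits, calls of 4 against 3 dpi were lost in 12 for *Trim30a*, 8 for *Gbp7*, 5 for *Isg15*, 3 for *Ifi44* and 2 for *Bst2*, those of 4 against 2 dpi in 13 for *Bst2*, 6 for *Oas1a*, 4 for *Isg15* and 3 for *Ifi44*, and those of 6 against 1 dpi in 5 for *Irf7*, 3 for *Ifit3*, 1 for *Oas2* and 0 for *Oas1a*. Replicate numbers do not pair the libraries: the mean r of deviations was 0.01 over 30 pairs with the same number and -0.0051 over 72 pairs with another, and with the replicate block 3 genes were called for 4 against 3 dpi.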
